A study of Mus musculus with 18 samples.

Results

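Expression of 10 genes for Fc receptors, complement receptors and complement component C3 was described in J774 cells, a mouse macrophage line, among 23102 genes measured on 18 arrays. The genes were listed by name: Fcgr1, Fcgr2b, Fcgr3, Fcgr4, Fcer1g, Itgam, Itgax, Itgb2, C3 and C5ar1. A gene's value is the log2 intensity averaged over those probe sets assigned to its symbol alone, and every one of the 10 genes was measured, with 4 to 31 probe sets each. The study exposed the cells for 24 h and asked what mineral particles and estradiol, an estrogen, do to them. There were 6 groups of 3 arrays: vehicle, estradiol at 2 µg/mL, talc at 10 µg per well, talc plus estradiol, titanium dioxide (TiO2) at 10 µg per well, and TiO2 plus estradiol at the same amounts. All groups share the same cell line and a medium free of phenol red with serum. J774 is 1 established line, and it is not stated whether separate cultures were grown for the 3 arrays of each group. The p-values therefore reflect the spread among these arrays, and that spread may be technical.

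Fc gamma receptors bind the constant part of IgG on coated particles and immune complexes. Fcgr1, Fcgr3 and Fcgr4 encode activating receptors that signal through the common gamma chain, the product of Fcer1g, whereas Fcgr2b encodes the inhibitory receptor, which carries its own inhibitory motif and recruits a lipid phosphatase. Complement component C3 is the protein from which the opsonin C3b and its fragment iC3b are made on a target surface. The integrins CR3 (Itgam with Itgb2) and CR4 (Itgax with Itgb2) bind iC3b, and C5ar1 is the receptor for the anaphylatoxin C5a. In macrophages these receptors serve phagocytosis and the recruitment of other leukocytes.

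Array medians lay between 45.6 and 48.0 intensity units, and the upper quartiles between 222 and 249, the lowest on 1 array of TiO2 plus estradiol. Of 9 macrophage markers, 8 stood above the median gene by their mean level, with Cd68 at percentile 99.9 and Csf1r at percentile 99.2, while Cd163 stood at percentile 42.5. None of 6 neutrophil, 4 B cell, 6 T and NK cell or 5 mast cell markers stood above the median gene. The highest among these was Nkg7 at percentile 49.3. In the fibroblast and epithelial lists 2 of 5 and 2 of 4 did so, the highest being Krt8 at percentile 57.5. Arrays with talc lay between 15361 and 16508 in the summed linear level of the macrophage markers and all other arrays between 13858 and 15108, a sum that the brightest markers dominate. By single genes, none of the 9 markers passed as higher and 2 passed as lower with talc against vehicle (median log2 change -0.13), and 1 and 1 with estradiol present (median -0.00). The part of these shifts in the results was not tested. Array numbers follow the groups, so array order and group cannot be told apart.

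C3 rose with talc and Fcgr2b fell, both without and with estradiol. Itgam was also lower in both arms, but its calls were lost with the brightest probe set as the gene's value. With estradiol, the Itgam call was lost as well on omitting any single array of the groups compared. Against vehicle, 4 of the 10 genes passed the test in limma (adjusted p under 0.05 over all genes): C3 was higher, and Fcgr2b, Itgam and Fcgr3 were lower. Over all genes 8.46% passed in that comparison, 3.94% higher and 4.52% lower. Against estradiol alone, talc plus estradiol gave 3 passing genes, C3 higher and Fcgr2b and Itgam lower, where 7.13% of all genes passed (4.13% higher, 3.0% lower). The median log2 change of the 10 genes was -0.15 against vehicle and -0.12 against estradiol, beside 0.02 and -0.00 over all genes. With TiO2, no member passed in either arm, and no member had an unadjusted p under 0.05.

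**Figure D1:**
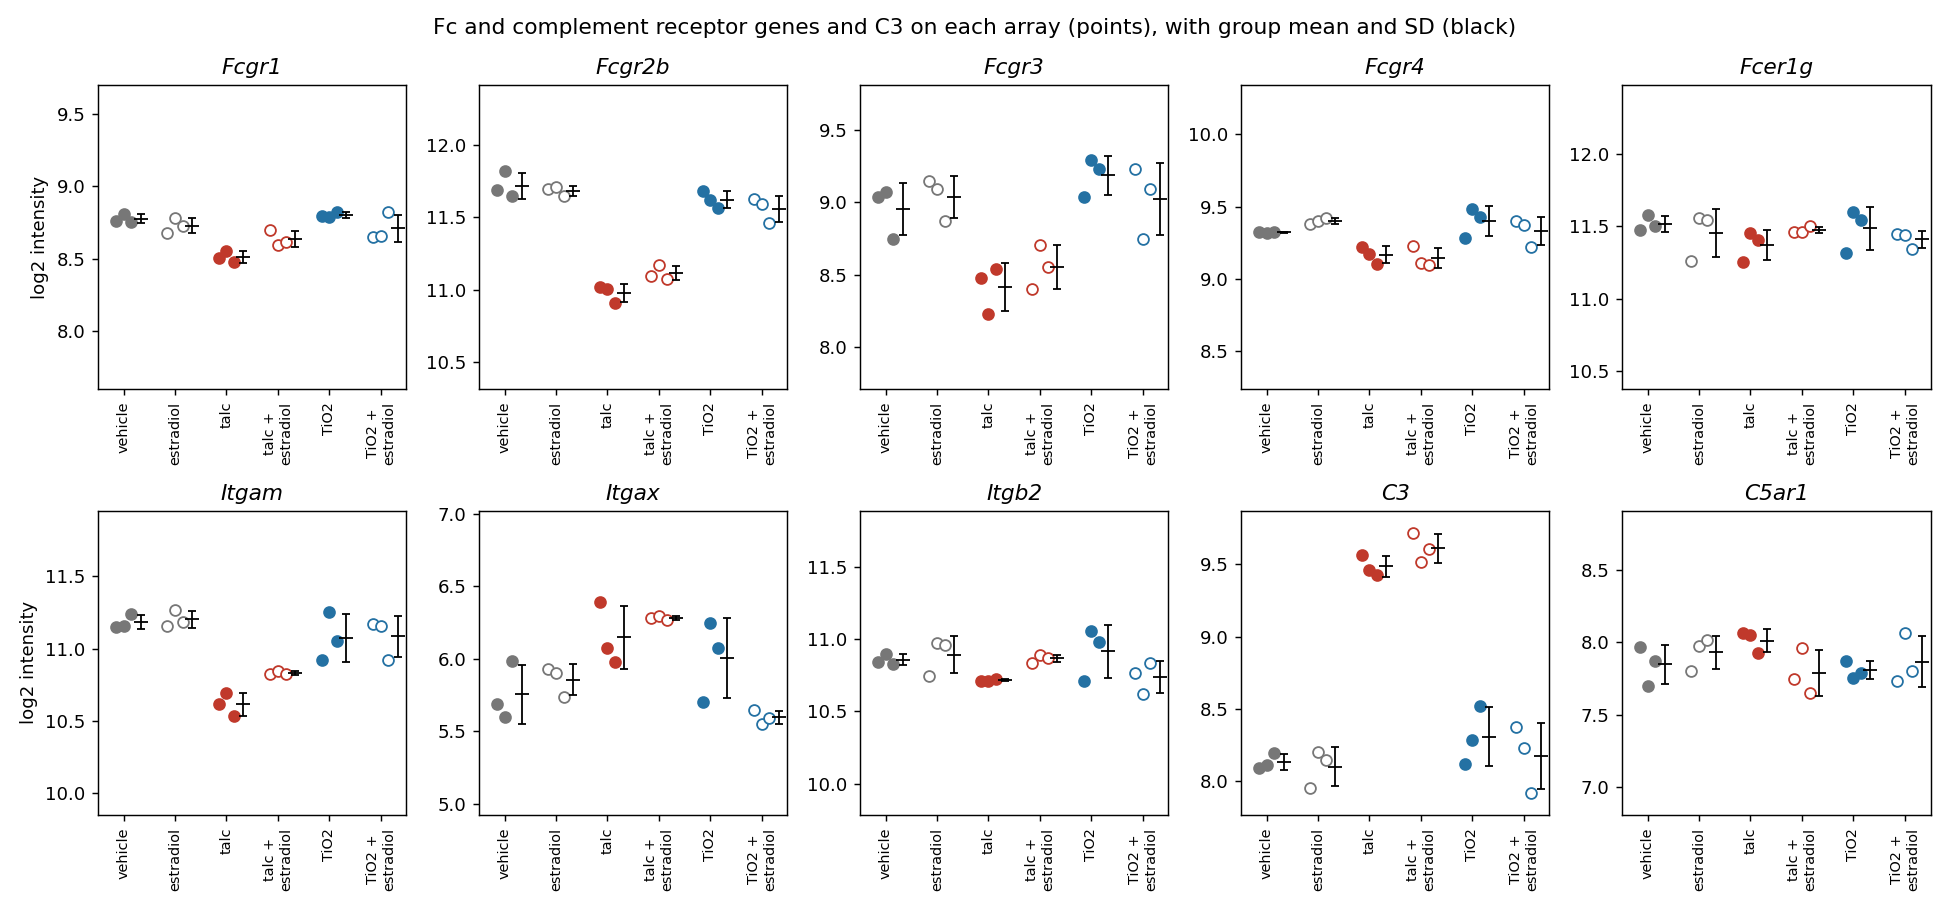
Log2 intensity of each of the 10 genes on every array (points, 3 per group), with the group mean and SD in black; each panel spans the same height on the log2 scale, and filled points are groups without estradiol. For C3 the 6 arrays with talc lie between 9.42 and 9.71, above the 12 others at 7.92 to 8.52, and for Fcgr2b they lie between 10.91 and 11.17, below the others at 11.46 to 11.82.

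C3, the central component of the complement cascade, had the largest change of the 10 genes. On the vehicle arrays its log2 intensity was 8.09, 8.11 and 8.20, and on the talc arrays 9.57, 9.46 and 9.42. With estradiol alone it was 7.95, 8.20 and 8.15, and with talc plus estradiol 9.71, 9.51 and 9.60. Every array with talc was above every array without it, and no value lay between 8.52 and 9.42. In 3.89% of all genes the 6 arrays with talc lay above the 12 others in this way, and in 2.70% below them. The mean was 8.13 ± 0.06 with vehicle and 9.48 ± 0.07 with talc (SD, n = 3). C3 thus rose by 1.35 ± 0.13 on the log2 scale (SE, limma adjusted p = 7.53e-06), or 2.55-fold. In the presence of estradiol the means were 8.10 ± 0.13 and 9.61 ± 0.10 (SD, n = 3), and the rise was 1.51 ± 0.13 (limma adjusted p = 4.02e-06), or 2.84-fold. The difference of these changes, the interaction of talc with estradiol, was 0.16 with a 95% interval from -0.22 to 0.53 (adjusted p = 0.932).

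The rise of C3 was spread over its probe sets. All 31 were higher with talc against vehicle, with log2 changes from 0.24 to 2.23 and a median of 1.39, and 24 passed on their own. In the same comparison 0.718% of all single probe sets passed as higher. With estradiol present 30 of 31 were higher, with a median of 1.55, and 23 passed, beside 0.423% of all probe sets. The exception was the dim probe set of lowest change, at -0.81 ± 0.72 (SE, adjusted p = 0.723) and a mean log2 intensity of 3.05. The brightest probe set of C3 changed by 1.21 and 1.36. With 1 array left out at a time there were 14 to 24 passing probe sets against vehicle and 13 to 25 against estradiol. The lowest counts came without talc replicate 3 or vehicle replicate 2 (14 each) and without talc plus estradiol replicate 3 (13), and counts of 15 came without talc replicate 1 or 2, vehicle replicate 3, talc plus estradiol replicate 1, or estradiol replicate 1 or 2.

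Because C3 rose while Itgam and Fcgr2b fell with the same particle, the sequences just before their start sites are shown. They come from RefSeq (build GRCm38.p6), whose table held promoters for 9 of the 10 genes, Itgb2 being the other one. Each run is 250 bases, 5′ to 3′ on the gene's strand, and ends at the base before the annotated start. Capitals mark matches, on either strand, to the letters of 5 motifs: the PU.1 core GAGGAA, AP-1 TGANTCA, C/EBP TTGCNNAA, the STAT element TTCNNNGAA and the NF-kB site.
C3 (chr17:57228137-57228386, minus strand): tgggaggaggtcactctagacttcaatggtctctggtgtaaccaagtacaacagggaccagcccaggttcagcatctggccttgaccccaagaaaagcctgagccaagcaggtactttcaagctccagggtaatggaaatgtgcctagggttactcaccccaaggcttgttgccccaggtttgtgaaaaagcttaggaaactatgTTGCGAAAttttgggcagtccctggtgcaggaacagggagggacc
Itgam (chr7:128062390-128062639, plus strand): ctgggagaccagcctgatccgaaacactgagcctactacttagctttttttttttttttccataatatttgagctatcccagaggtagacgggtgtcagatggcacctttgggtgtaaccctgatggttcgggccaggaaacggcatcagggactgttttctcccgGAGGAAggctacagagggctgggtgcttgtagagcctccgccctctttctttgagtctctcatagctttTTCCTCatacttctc
Fcgr2b (chr1:170976072-170976321, minus strand): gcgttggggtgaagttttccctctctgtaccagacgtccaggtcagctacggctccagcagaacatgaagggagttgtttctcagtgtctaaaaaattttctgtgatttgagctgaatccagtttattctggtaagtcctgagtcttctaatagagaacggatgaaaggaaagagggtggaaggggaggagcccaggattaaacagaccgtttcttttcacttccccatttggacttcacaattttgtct
The C3 run held 1 match, TTGCGAAA for C/EBP, whose first base lies 45 bases before the start. Among all 32851 promoters of this length, 9.56% held a C/EBP match. Itgam held 2 matches of the PU.1 core, at 84 and 15 bases before the start, and 23.3% of all promoters held at least 1. The Fcgr2b run held none of the letters searched. The shares of all promoters with the other motifs were 6.75% for AP-1, 7.02% for the STAT element and 0.98% for NF-kB. Both Fcgr3 promoters given also held a C/EBP match (TTAAGCAA). The PU.1 core was found in Fcgr1, Fcgr3, Fcgr4 and Itgam. AP-1 was matched only in Itgax (TGAGTCA, 56 bases before the start), and the STAT element only in Fcgr1. Fcer1g and C5ar1, like Fcgr2b, held no match. Whether any match bears on the changes was not tested. A match of letters is a description of the sequence and shows no binding.

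The estimates of the integrin chains of CR3 and CR4 differed in sign and size, and no difference between genes was tested. Itgam, which encodes the alpha chain CD11b, had log2 intensities of 11.15, 11.16 and 11.24 with vehicle and 10.62, 10.70 and 10.54 with talc. With estradiol it stood at 11.16, 11.27 and 11.18, and with talc plus estradiol at 10.82, 10.85 and 10.82. All 6 arrays with talc were thus below the 12 others, of which the lowest was 10.92. Itgam fell by 0.57 ± 0.10 on the log2 scale against vehicle (SE, limma adjusted p = 0.00165) and by 0.37 ± 0.10 against estradiol (adjusted p = 0.0332). The second of these calls was lost on omitting any single array among the 6 compared, with adjusted p from 0.0675 to 0.129, when only those 6 arrays were fitted (adjusted p = 0.072), and with the brightest probe set (-0.28, adjusted p = 0.189). All 29 probe sets of Itgam were lower with talc against vehicle, with a median of -0.47, but only 3 passed on their own, where 1.08% of all probe sets passed as lower. This number lay between 0 and 5 when 1 array was left out. The brightest probe set changed by -0.16, and with it as the gene's value the call was lost (adjusted p = 0.505).

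Itgax, the alpha chain CD11c, lies beside Itgam on chromosome 7, with 1 gene and no protein-coding gene between them in the RefSeq table. It stood at 5.68, 5.60 and 5.98 with vehicle, at 6.39, 6.07 and 5.98 with talc, at 5.93, 5.90 and 5.73 with estradiol and at 6.28, 6.30 and 6.27 with talc plus estradiol. The vehicle and talc arrays overlapped, and those with talc plus estradiol were above those with estradiol. The log2 changes were 0.39 ± 0.14 (limma adjusted p = 0.106) and 0.42 ± 0.14 (adjusted p = 0.0835), neither of which passed. Itgax stood at percentile 62.2 of all genes by its mean level, and its 22 probe sets ranged from -1.16 to 1.44 against vehicle, with 17 higher and 5 lower.

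Itgb2, the beta chain CD18 shared by both receptors, had group means between 10.71 and 10.91, and its log2 changes with talc were -0.14 ± 0.10 (limma adjusted p = 0.517) and -0.03 ± 0.10 (adjusted p = 0.939). The 95% intervals ran from -0.36 to 0.08 and from -0.24 to 0.19. C5ar1, the C5a receptor, had group means between 7.78 and 8.01, and changed by 0.16 ± 0.12 (adjusted p = 0.498) and -0.15 ± 0.12 (adjusted p = 0.564). The interaction of talc with estradiol for C5ar1 was -0.31, with a 95% interval from -0.65 to 0.03 and an adjusted p of 0.815. Its 4 probe sets were all higher with talc against vehicle, and 2 of 4 with estradiol present.

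Among the Fc receptors the inhibitory Fcgr2b had the lowest estimates with talc against vehicle and against estradiol, though not against TiO2, where Fcgr3 was lower, nor for the brightest probe sets against estradiol, where Fcgr4 was at -0.38 and Fcgr2b at -0.37. Its log2 intensities were 11.69, 11.82 and 11.65 with vehicle and 11.02, 11.01 and 10.91 with talc. With estradiol they were 11.69, 11.71 and 11.65, and with talc plus estradiol 11.10, 11.17 and 11.08. Arrays with and without talc did not overlap, being separated by a gap from 11.17 to 11.46. Fcgr2b fell by 0.74 ± 0.09 against vehicle (SE, limma adjusted p = 4.7e-05), a 1.67-fold change, and by 0.57 ± 0.09 against estradiol (adjusted p = 0.000639), a 1.48-fold change. Its 8 probe sets were all lower in both comparisons, and 4 and 2 of them passed on their own. Over all probe sets, 1.08% and 0.549% passed as lower. With 1 array left out the numbers of passing Fcgr2b probe sets lay between 1 and 4, and between 0 and 2. The deepest probe set against vehicle was at -1.23 ± 0.16, and the brightest at -0.38 ± 0.12. Adjusted over all probe sets, the brightest passed in neither comparison (limma adjusted p = 0.146 against vehicle and 0.196 against estradiol).

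Of the activating receptors, Fcgr3 (CD16) passed against vehicle. It stood at 9.04, 9.07 and 8.75 with vehicle, at 8.48, 8.23 and 8.54 with talc, at 9.15, 9.09 and 8.87 with estradiol and at 8.40, 8.71 and 8.55 with talc plus estradiol. The arrays with talc, at 8.71 or less, were below all others, at 8.75 or more, but the margin was narrow and the spread within groups the widest of the 10 genes (mean SD 0.17). Fcgr3 fell by 0.54 ± 0.14 against vehicle (SE, limma adjusted p = 0.0243), and its change against estradiol was -0.48 ± 0.14 (adjusted p = 0.0509). The first call was lost without talc replicate 1 (0.0528) or 2 (0.113), without vehicle replicate 1 (0.0886) or 2 (0.104), with only the 6 arrays compared (0.0635), or with the brightest probe set, which changed by -0.30 (0.112). All 6 of its probe sets were lower against vehicle, and none passed alone. Fcgr2b and Fcgr3 have closely related extracellular parts, and how far their probes tell them apart is not given in the sources used here.

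Fcgr1 (CD64), the high-affinity receptor, had 8.76 to 8.81 with vehicle and 8.48 to 8.55 with talc, with changes of -0.26 ± 0.08 (limma adjusted p = 0.061) and, with estradiol present, -0.09 ± 0.08 (adjusted p = 0.626). Fcgr4 had 9.32 on each vehicle array and 9.11 to 9.22 with talc, with changes of -0.15 ± 0.09 (adjusted p = 0.38) and -0.25 ± 0.09 (adjusted p = 0.102). Fcgr1 passed against vehicle and Fcgr4 against estradiol in some other fits, such as one with array weights. Fcgr3 passed against estradiol in 3 of 8 other settings, and Itgax in 1 of 8 both against vehicle and against estradiol. Fcer1g, the signalling chain, kept group means between 11.37 and 11.52, and its changes were -0.15 ± 0.10 (adjusted p = 0.511) and 0.02 ± 0.10 (adjusted p = 0.954). The arrays of talc and vehicle did not overlap for 8 of the 10 genes, 7 of them lower, where this held for 26.2% of all genes. With estradiol present it held for 6, of which 4 were lower, beside 26.2% of all genes. In RNA of whole cultures, fewer cells with a transcript and less of it per cell cannot be told apart.

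**Figure D2:**
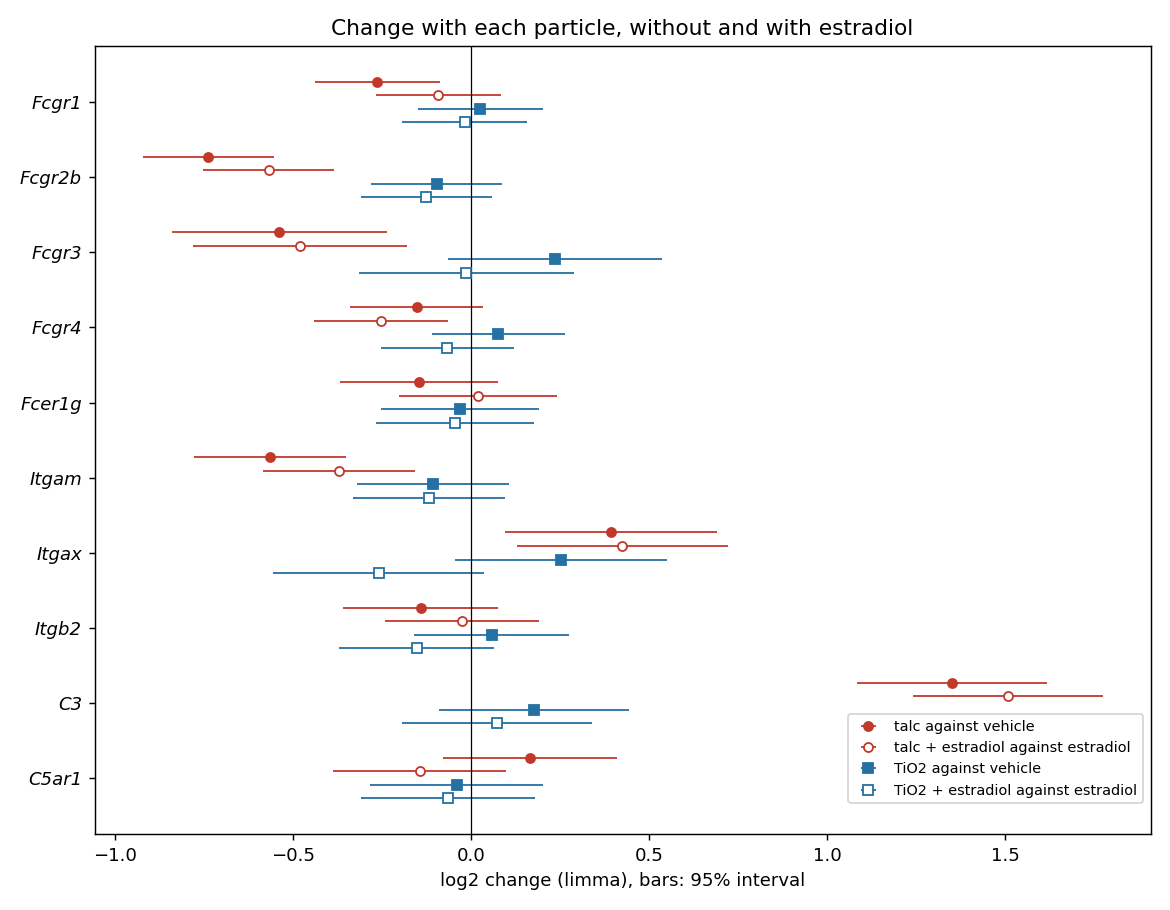
Log2 change of each gene (x axis, limma estimate with 95% interval) with talc (red circles) and TiO2 (blue squares), without estradiol (filled) and with it (open). The intervals of C3, Itgax, Fcgr2b, Fcgr3 and Itgam, which are not adjusted for the number of genes, exclude 0 in both talc comparisons, and every TiO2 interval of the 10 genes includes 0.

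**Figure D3:**
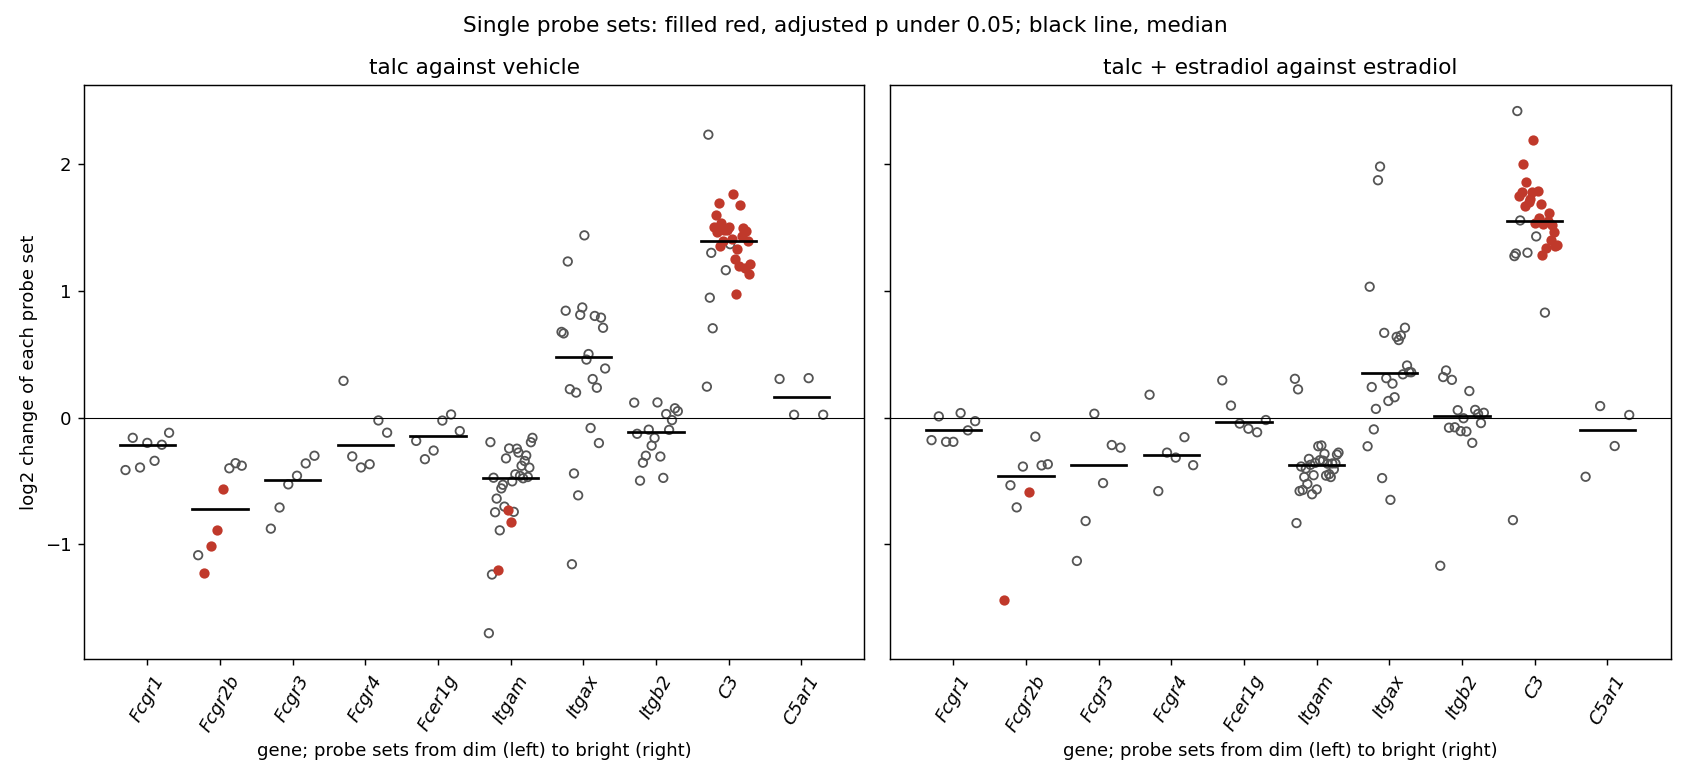
Log2 change of every probe set of the 10 genes (135 in all) with talc against vehicle (left) and with talc plus estradiol against estradiol (right), ordered from dim to bright within a gene; filled red points passed at an adjusted p under 0.05 over all probe sets and black lines are medians. C3 has 24 and 23 filled points, Fcgr2b 4 and 2, and Itgam 3 and 0.

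The particles were then compared with each other, at the same mass per well. These comparisons use the same talc arrays as those above, so they are not a separate observation of talc. C3 was higher with talc than with TiO2 by 1.17 ± 0.13 (SE, limma adjusted p = 2.36e-05), and by 1.43 ± 0.13 with estradiol in both (adjusted p = 6.31e-06). The TiO2 arrays had C3 at 8.12, 8.29 and 8.52, and those of TiO2 plus estradiol at 8.37, 8.23 and 7.92. The 6 arrays of vehicle and estradiol spanned 7.95 to 8.20, and the TiO2 arrays lay on both sides of that range as well as in it, all below 9.42, the lowest array with talc. Fcgr2b was lower with talc by 0.64 ± 0.09 (adjusted p = 0.000163) and by 0.44 ± 0.09 (adjusted p = 0.00411). The second of these was lost with only the arrays compared (adjusted p = 0.066) and with the median of its probe sets (0.0546).

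Fcgr3 was lower with talc than with TiO2 by 0.77 ± 0.14 (limma adjusted p = 0.00202), and with estradiol the difference was -0.47 ± 0.14 (adjusted p = 0.0482). Its change with TiO2 against vehicle was 0.24 ± 0.14 and did not pass (adjusted p = 0.699). On the TiO2 arrays Fcgr3 stood at 9.04, 9.29 and 9.23. The call with estradiol rested close to the threshold: it was lost on leaving out any 1 of 12 of the 18 arrays, with adjusted p up to 0.172, and under 4 of 8 other settings, where the median of probe sets gave -0.22 (0.382) and the brightest one -0.25 (0.17). Itgam was lower with talc by 0.46 ± 0.10 without estradiol (adjusted p = 0.00751), a call lost with the brightest probe set (0.228) or only the arrays compared (0.0863). Its difference with estradiol was -0.25 ± 0.10 (adjusted p = 0.134). Fcgr1 was lower without estradiol by 0.29 ± 0.08 (adjusted p = 0.035), a call lost on omitting any single array of both groups (adjusted p from 0.0624 to 0.118).

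Itgax passed in 1 comparison, with 6.28 ± 0.02 in talc plus estradiol against 5.59 ± 0.05 in TiO2 plus estradiol (SD, n = 3), a difference of 0.69 ± 0.14 (limma adjusted p = 0.00541). It was lost with the median of its probe sets (0.104) or the brightest one (0.446). The difference without estradiol was 0.14 ± 0.14 (adjusted p = 0.629). On the TiO2 arrays Itgax was spread from 5.70 to 6.24, and on those with TiO2 plus estradiol from 5.55 to 5.64. In all, 5 of 10 genes passed for talc against TiO2, 1 higher and 4 lower, where 9.96% of all genes passed (4.61% higher, 5.35% lower). With estradiol 4 of 10 passed, 2 higher and 2 lower, where 9.53% did (6.66% higher, 2.87% lower).

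TiO2 itself gave changes between -0.11 and 0.25 in the 10 genes against vehicle, and between -0.26 and 0.07 against estradiol. None passed in limma, where 0% and 0.00433% of all genes passed. For C3 the 95% interval of the TiO2 change was -0.09 to 0.44 against vehicle and -0.19 to 0.34 against estradiol, and for Fcgr2b it was -0.28 to 0.09 and -0.31 to 0.06. Arrays of TiO2 and vehicle overlapped for all 10 genes, where 12.4% of all genes did not overlap (6.01% higher, 6.42% lower). With estradiol 2 genes, Fcgr2b and Itgax, lay below without overlap, where 14.2% of all genes did not overlap (5.77% higher, 8.41% lower). These intervals bound the size of a change and do not show that there was none.

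Estradiol was not followed by a passing change in any of the 10 genes. Against vehicle the changes lay between -0.06 and 0.10, and none had an unadjusted p under 0.05; 0% of all genes passed. Only the arrays of Fcgr4 did not overlap, being higher with estradiol, where 10.6% of all genes did not overlap (4.90% higher, 5.69% lower). With talc present, 8 of 10 estimates were positive, and 1 gene, Itgam, had an unadjusted p under 0.05, at 0.21 ± 0.10 (limma adjusted p = 0.755). The arrays of talc plus estradiol lay above those of talc for 5 of 10 genes (Fcgr1, Fcgr2b, Fcer1g, Itgam and Itgb2), and this held for 7.46% of all genes. With TiO2 present, Itgax was lower with estradiol, at -0.41 ± 0.14 (unadjusted p = 0.00968, adjusted p = 0.251), and 0.00866% of all genes passed. The interaction of TiO2 with estradiol for Itgax was -0.51, with a 95% interval from -0.93 to -0.09 and an adjusted p of 0.542. No interaction passed for any of the 10 genes, with 0 and 1 unadjusted p under 0.05 for talc and TiO2.

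The order of the group means shows how the 10 genes sort. Talc was the lowest group for Fcgr1, Fcgr2b, Fcgr3, Fcer1g, Itgam and Itgb2, and talc plus estradiol for Fcgr4 and C5ar1. For C5ar1, however, talc without estradiol was the highest group, and for C3 and Itgax talc plus estradiol was the highest. For Fcgr2b the order rose from talc through talc plus estradiol, TiO2 plus estradiol, TiO2 and estradiol to vehicle. The first 2 steps were between arrays that did not overlap, and the highest 4 groups overlapped between neighbours. For Itgam the order began in the same way, and both steps up to TiO2 were between arrays that did not overlap. For C3 the only step between neighbours without overlap was that from TiO2 to talc, 1.17 log2 units. For Fcer1g, Itgax, Itgb2 and C5ar1 all neighbouring groups overlapped. The range of group means was 1.51 log2 units for C3, 0.77 for Fcgr3, 0.74 for Fcgr2b, 0.69 for Itgax, 0.59 for Itgam and at most 0.29 for the other 5 genes.

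Other genes of these pathways were read from 4 lists with 98 members, of which 94 were measured. Of these, 5 were higher and 5 lower with talc against vehicle (10.6%, beside 8.46% of all genes), and 4 higher and 5 lower with estradiol present (9.57%, beside 7.13%). None passed with TiO2 in either arm in limma. Among 28 genes of Fc receptor signalling, 2 were higher and 2 lower against vehicle, and 3 higher and 2 lower against estradiol. Inppl1, a lipid phosphatase, was higher by 0.68 ± 0.12 and 0.88 ± 0.12 (limma adjusted p = 0.00145 and 0.000224). Pik3cg, a catalytic subunit of phosphoinositide 3-kinase, fell by 0.94 ± 0.10 and 0.59 ± 0.10 (adjusted p = 2.9e-05 and 0.00201). Syk, the kinase that binds the phosphorylated gamma chain, changed by 0.28 ± 0.09 (adjusted p = 0.076) and 0.45 ± 0.09 (adjusted p = 0.00617). Fgr, a Src family kinase, changed by 0.74 ± 0.21 (adjusted p = 0.0376) and 0.64 ± 0.21 (adjusted p = 0.0797). Pik3cd, another catalytic subunit of phosphoinositide 3-kinase, changed by -0.61 ± 0.12 (adjusted p = 0.00295) and -0.36 ± 0.12 (adjusted p = 0.0781). Vav3, a guanine nucleotide exchange factor, changed by -0.22 ± 0.13 (adjusted p = 0.422) and -0.52 ± 0.13 (adjusted p = 0.0247). Dok1, an adaptor protein, changed by 0.08 ± 0.09 (adjusted p = 0.749) and 0.43 ± 0.09 (adjusted p = 0.0086). Inpp5d, the phosphatase SHIP1 recruited by the inhibitory receptor, had -0.23 ± 0.11 against vehicle (adjusted p = 0.242).

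Of 37 other complement components and regulators, none passed as higher, beside 3.94% and 4.13% of all genes against vehicle and against estradiol. As lower, 2 passed against vehicle and 3 against estradiol, beside 4.52% and 3.0% of all genes. Whether these counts differ from those shares was not tested. Fcna, a ficolin, fell by 0.67 ± 0.11 and 0.48 ± 0.11 (limma adjusted p = 0.000909 and 0.0139), and Masp1, a protease of the lectin pathway, by 0.41 ± 0.12 and 0.50 ± 0.12 (adjusted p = 0.0436 and 0.0178). The third gene that passed with estradiol present was Cd46, a complement regulator, at -0.69 ± 0.19 (adjusted p = 0.0335), from a dim level at percentile 22.2. C3ar1, the receptor for C3a, changed by 0.26 ± 0.08 (adjusted p = 0.0571) and 0.14 ± 0.08 (adjusted p = 0.396). The C1q chain genes C1qa, C1qb and C1qc had -0.30, -0.15 and -0.18 against vehicle, and did not pass. Factor B, encoded by Cfb, which cleaves C3 in the alternative pathway, stood at percentile 45.6 and had -0.07 ± 0.11.

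Of 17 partners, activators and ligands of the beta-2 integrins, Icam1, a ligand of CR3, rose by 0.87 ± 0.09 and 0.72 ± 0.09 (limma adjusted p = 1.37e-05 and 0.000103). Itgal, the alpha chain of LFA-1, which also pairs with Itgb2, fell by 0.84 ± 0.13 against vehicle (adjusted p = 0.00057) and had -0.34 ± 0.13 against estradiol (adjusted p = 0.158). Rap1b, a small GTPase of integrin activation, was higher against vehicle by 0.37 ± 0.10 (adjusted p = 0.0353) and did not pass against estradiol. Among 12 relatives of the Fc receptors, 1 passed against vehicle, where 8.46% of all genes passed. It was Fcamr, a receptor for IgA and IgM, with 0.41 ± 0.12 (adjusted p = 0.0387) at percentile 36.9. Against estradiol Fcamr had 0.04 ± 0.12 (adjusted p = 0.925). Between the particles its sign differed by arm: 0.41 ± 0.12 for talc against TiO2 (adjusted p = 0.0327) and -0.39 ± 0.12 with estradiol in both (adjusted p = 0.0429). The neonatal receptor Fcgrt had -0.48 ± 0.17 (adjusted p = 0.0924). Of the genes in this paragraph and those on signalling and complement, Syk, Fgr, Pik3cd, Vav3, Dok1, Inpp5d, Cd46, C3ar1, the C1q genes, Cfb, Itgal, Rap1b, Fcamr and Fcgrt were chosen after their values were seen.

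**Figure D4:**
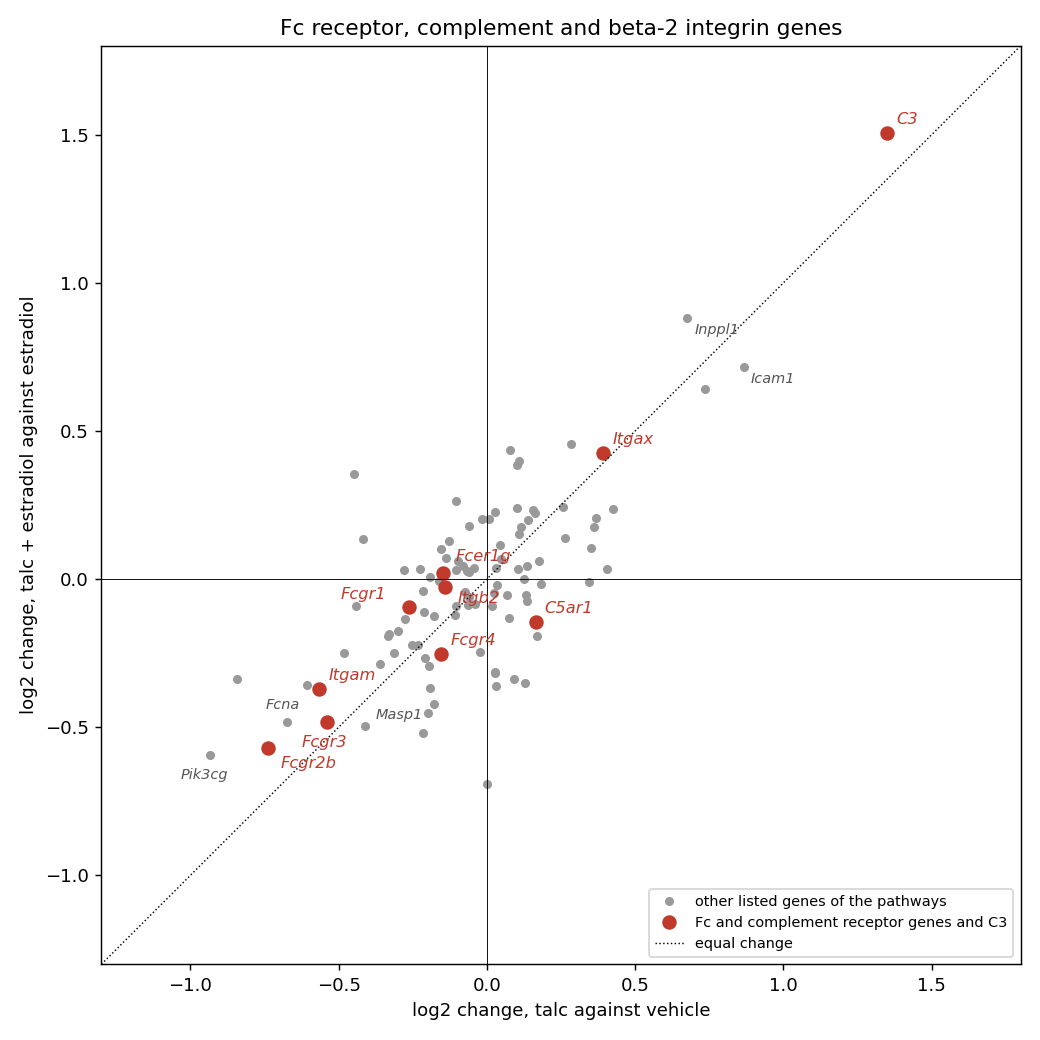
Log2 change with talc against vehicle (x axis) and with talc plus estradiol against estradiol (y axis), comparisons that share no array, for the 10 genes (red) and 94 other listed genes of the Fc receptor, complement and integrin pathways (grey). C3 stands at 1.35 and 1.51, farthest from the origin, and Fcgr2b at -0.74 and -0.57.

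Genes of most similar pattern were sought for the members that passed in both talc comparisons, by the root mean square difference of log2 values centred on each gene's own mean, over the 18 arrays and 10730 candidates above the median level. For Fcgr2b they were Cdk19 (0.078), Prc1 (0.079) and Mki67 (0.081 log2 units), where the median candidate differed by 0.35. For Itgam they were Dpysl2 (0.072), Sord (0.074) and E2f1 (0.079), with a median of 0.29. For C3 they were Rrp12 (0.16), Nop2 (0.16) and Trmt61a (0.18), with a median of 0.67. The 18 arrays share 1 cell line and 1 processing, and the 6 arrays with talc carry most of the pattern, so that any gene with a talc change of like size comes close. Mki67, a proliferation marker, fell by 0.87 ± 0.10 and 0.68 ± 0.10 with talc, and Nop2, a nucleolar RNA methyltransferase, had 1.29 ± 0.10 and 1.21 ± 0.10.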

How the data were processed

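RNA of 18 samples was measured on Affymetrix arrays; the authors' deposited intensity table is on a linear scale, per its values, from 1.46 to 17256, and per the submitters' processing notes it was made with RMA, whose version and settings are not given in the sources used here. Here log2 was taken, and a gene's value was the mean over its probe sets with 1 symbol (233753 probe sets, 23102 genes; 2247 symbols updated through RefSeq synonyms, 5106 probe sets with several symbols and 30892 with none left out). A limma 3.58.1 model in R 4.3.3 with a mean per group over all 18 arrays (12 residual and 4.57 prior degrees of freedom) gave 11 contrasts, two-sided, with Benjamini-Hochberg adjustment over all genes, and the same model was run on single probe sets. The model was tested on simulated data with changes of known size. Precision is limited by the number of arrays: the standard error had a median of 0.15 log2 units between groups and 0.21 for interactions. The genes and lists were chosen with earlier results of these data known. Named were the 10 genes, list genes that passed in both talc comparisons, at most 5 per direction and list, the 3 closest genes by pattern of each member that passed in both, and genes marked as chosen later. List genes that matched no symbol were not analysed here.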

Additional observations from a re-analysis of the deposited data

How the results depend on the processing

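The calls of C3 and Fcgr2b with talc against vehicle and against estradiol held under all 8 other settings and without any 1 of the 18 arrays, with changes of C3 from 1.21 to 1.56 and from 1.36 to 1.72. Under the 8 settings Fcgr2b ranged from -0.75 to -0.38 and from -0.57 to -0.37. Its limma adjusted p there reached 0.0292 and 0.0453, nearer the threshold than for C3. No called change of a member turned its sign. The number of passing members with talc plus estradiol against estradiol was 6 when genes below the median level were dropped and 5 with an intensity trend and robust variance or with array weights, instead of 3. The brightest probe set as gene value gave 2 instead of 4 for talc against vehicle and 3 instead of 5 for talc against TiO2. A fit of only the arrays compared gave 3 instead of 5 for talc against TiO2 and 2 instead of 4 for the same comparison with estradiol, where the median of probe sets gave 1. The cause of these shifts was not tested. With 1 array left out, the members passing were 3 to 5, 2 to 4, 4 to 5 and 3 to 4 in these 4 comparisons (talc against vehicle, with estradiol against estradiol, against TiO2, and against TiO2 with estradiol). The probe sets of members passing, 31, 25, 24 and 24 with all arrays, were then 15 to 32, 13 to 26, 9 to 25 and 13 to 24, an alternative chosen after seeing the data. Against vehicle they were 17, 19 and 15 without talc replicate 1, 2 and 3, and 16 and 19 without vehicle replicate 2 and 3. Against estradiol they were 15, 16 and 13 without talc plus estradiol replicate 1, 2 and 3, and 15 without estradiol replicate 1 or 2. Against TiO2 they were 11, 13 and 9 without talc replicate 1, 2 and 3, and 13, 13 and 14 without TiO2 replicate 1, 2 and 3, and with estradiol 13 and 15 without talc plus estradiol replicate 1 and 3. No paired analysis was possible because the labels give no replicate number that groups share: the replicate numbers used here follow the order of deposition, only name an array and pair none.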
